A study of Homo sapiens with 6 samples.

Results

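The transcripts described here encode the enzymes and transporters of glycolysis, the regulators of its flux, the oxygen-sensing machinery and targets induced by low oxygen, in TFK1 cells with and without STUB1 overexpression. The genes were chosen by symbol from a list of 47 names, of which 45 were listed among the 23569 genes of the expression table. MXD1P1 and EFNA1P1 were not found there under those symbols. By role the 45 genes were 17 glycolytic enzymes, 4 glucose and lactate transporters, 4 flux regulators, 6 genes of oxygen sensing and 14 hypoxia targets. All 45 passed the filter on low values, a mean of at least 0.1 FPKM over the 6 libraries, and so belonged to the 15353 genes tested. FPKM are fragments scaled to gene length and to all fragments of the library.

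TFK1 is a cell line derived from an extrahepatic bile duct carcinoma. The 3 oeNC libraries came from cells of the genotype negative control and the 3 oeSTUB1 libraries from cells of the genotype STUB1 overexpression, with no further treatment in either group. Both populations had been infected with lentivirus and selected with puromycin, so an effect of STUB1 and a difference between the selected populations cannot be told apart. STUB1 is a cochaperone and an E3 ubiquitin ligase. The methods say in general that experiments were independent repeats, but the labels do not say whether these replicates came from separate cultures, so p-values measure the spread between these libraries, which may be technical. In bulk RNA, fewer cells expressing a gene and less RNA per cell cannot be told apart.

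Library totals recovered from the FPKM steps lay between 33106564 and 36744521 fragments. STUB1 itself was at 32.9, 33.0 and 30.9 FPKM in the oeNC libraries and at 61.4, 75.0 and 61.9 FPKM in the oeSTUB1 libraries, with no overlap between the groups. Summed over all genes, oeSTUB1 replicate 2 stood apart at 445507 FPKM, against 395202 to 408809 in the other libraries, and counts are therefore also given without it. Of 9 bile duct epithelium markers 2 rose and 5 fell, with a summed level from 7433 to 8010 FPKM in oeNC libraries and from 4735 to 6274 FPKM in oeSTUB1 libraries. KRT8 and KRT18 were among the markers that fell, and KRT19, a usual bile duct keratin, was low in both groups at 0.374 to 0.529 FPKM in oeNC and 2.51 to 3.41 FPKM in oeSTUB1. Leukocyte markers summed to 27.1 to 27.8 FPKM in oeNC and 19.5 to 19.7 FPKM in oeSTUB1, nearly all of it CD68, which fell, while CD3E was at 0.108 FPKM or less. Fibroblast markers summed to at most 3.82 FPKM and those of endothelium to at most 0.231 FPKM in any library. Hepatocyte markers summed to 94.4 to 100.3 FPKM in oeNC and 33.5 to 52.8 FPKM in oeSTUB1, nearly all of it CPS1, which fell, with ALB at 0.0512 FPKM or less. The part of these marker differences in the results below was not tested.

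Glycolysis converts glucose to pyruvate, and lactate dehydrogenase then reduces pyruvate to lactate, which leaves the cell through monocarboxylate transporters. Many carcinoma cells run this route even when oxygen is present. Under normal oxygen the EGLN prolyl hydroxylases mark the HIF alpha subunits, HIF1A and EPAS1, for recognition by VHL and degradation of the protein. When oxygen falls the alpha subunits persist, pair with ARNT and bind DNA at a short core sequence in their target genes, among them glycolytic enzyme genes, EGLN3, CA9, VEGFA and ADM. The libraries measured RNA, so neither the stability of the HIF alpha proteins nor lactate output was observed.

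The HIF core, written as ACGTG or GCGTG, was searched on both strands in windows from 250 bases before to 50 bases after gene starts, as given by RefSeq on GRCh38.p14. Windows were found for 38 of the 45 genes, and 34 of these genes held a core. Of their 68 windows 69.1% held a core, against 48.4% of all 35116 windows. The sequences of 5 genes that moved in these libraries are printed below from the upstream end of the window to the last base before a GENCODE exon, with each core match in capitals. HIF1A and EPAS1 are shown as the paired alpha subunits, and EGLN3 as a gene without a match. BNIP3 is shown as a window with 6 matches, and ANGPTL4 as a hypoxia target that fell. HK2 and LDHA, which did not pass the test, also had a window with 6 matches. Whether the number of matches goes with the change was not tested.
HIF1A: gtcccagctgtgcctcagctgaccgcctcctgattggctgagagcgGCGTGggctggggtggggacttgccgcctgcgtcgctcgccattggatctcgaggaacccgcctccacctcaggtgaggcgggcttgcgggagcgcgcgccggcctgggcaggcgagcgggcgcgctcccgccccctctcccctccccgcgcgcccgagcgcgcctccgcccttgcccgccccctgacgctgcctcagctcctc
EPAS1: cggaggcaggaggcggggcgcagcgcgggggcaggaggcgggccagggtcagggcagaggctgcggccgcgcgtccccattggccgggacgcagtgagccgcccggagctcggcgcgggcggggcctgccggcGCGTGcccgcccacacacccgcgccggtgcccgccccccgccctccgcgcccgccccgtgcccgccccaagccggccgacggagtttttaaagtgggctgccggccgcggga
EGLN3: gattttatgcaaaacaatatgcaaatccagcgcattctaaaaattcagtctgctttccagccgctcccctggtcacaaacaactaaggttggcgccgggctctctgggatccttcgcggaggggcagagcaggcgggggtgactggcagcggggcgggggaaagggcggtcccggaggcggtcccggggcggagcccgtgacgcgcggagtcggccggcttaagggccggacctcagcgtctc
BNIP3: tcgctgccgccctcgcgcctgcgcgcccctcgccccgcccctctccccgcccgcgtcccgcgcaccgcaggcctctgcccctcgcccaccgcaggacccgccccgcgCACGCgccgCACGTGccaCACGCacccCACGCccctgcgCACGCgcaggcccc
ANGPTL4: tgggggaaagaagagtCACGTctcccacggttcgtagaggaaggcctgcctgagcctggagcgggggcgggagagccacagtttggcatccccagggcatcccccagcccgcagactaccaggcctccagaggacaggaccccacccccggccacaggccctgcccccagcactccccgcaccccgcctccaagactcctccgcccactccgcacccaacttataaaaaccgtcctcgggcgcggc
In build GRCh38.p14 these stretches are chr14:61695263-61695512 on the plus strand for HIF1A, chr2:46297157-46297401 on the plus strand for EPAS1, chr14:33951082-33951324 on the minus strand for EGLN3, chr10:131982014-131982173 on the minus strand for BNIP3 and chr19:8363905-8364150 on the plus strand for ANGPTL4. The single core match began 204 bases before the start of HIF1A, 117 bases before that of EPAS1 and 234 bases before that of ANGPTL4. The 6 matches of BNIP3 began between 143 and 104 bases before its start, and a palindromic CACGTG, which is present in 7.26% of all windows, counted on both strands among them. A match is a run of letters and not a measured binding site, and EGLN3 without a match says only that these letters are not in its window. A core was found for 6 of 6 genes that rose and had a window, for 5 of 6 that fell and for 23 of 26 that did not pass the test.

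Expression was compared with limma on log2(FPKM + 0.1), and a gene was called higher or lower when its p-value, adjusted by Benjamini-Hochberg over all genes tested, was under 0.05. Fold changes are log2 differences, oeSTUB1 minus oeNC, on this scale, which understates the change of low genes. Of the 45 genes 15 were called (33.3%), against 13.6% of all genes tested. Of the 45 genes 6 rose and 9 fell, while of the 15353 genes tested 1076 rose (7.01%) and 1012 fell (6.59%). Without oeSTUB1 replicate 2 the calls numbered 26, 11 higher and 15 lower, and those over all genes also rose, to 26.8% of 15369 tested. An absolute log2 fold change over 1 as well was reached by 2 of the 45 genes, EPAS1 and NDRG1, both lower. Of the 15353 genes tested 798 (5.2%) reached it in either direction. The groups did not overlap in 30 of the 45 genes (66.7%), against 38.8% of all genes. Calls ran in both directions within the enzymes, the oxygen-sensing genes and the hypoxia targets, and the median log2 fold change over the 45 genes was -0.10, beside 0.02 over all genes tested.

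**Figure D1:**
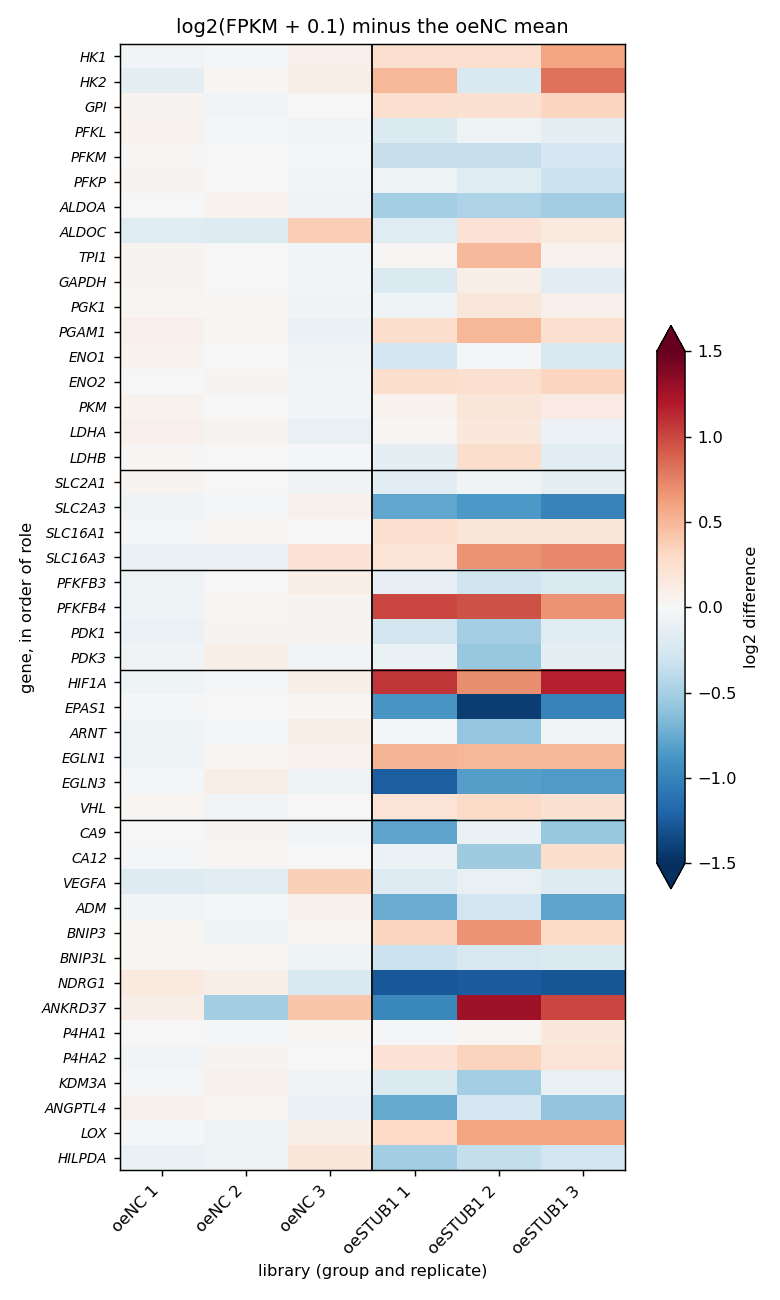
Log2(FPKM + 0.1) of the 45 genes in each of the 6 libraries, drawn as the difference from the oeNC mean of the gene (colour, log2 units) with genes grouped by role. HIF1A, EGLN1 and PFKFB4 are above the oeNC mean in all 3 oeSTUB1 libraries, and EPAS1, EGLN3, SLC2A3 and NDRG1 are below it in all 3.

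**Figure D2:**
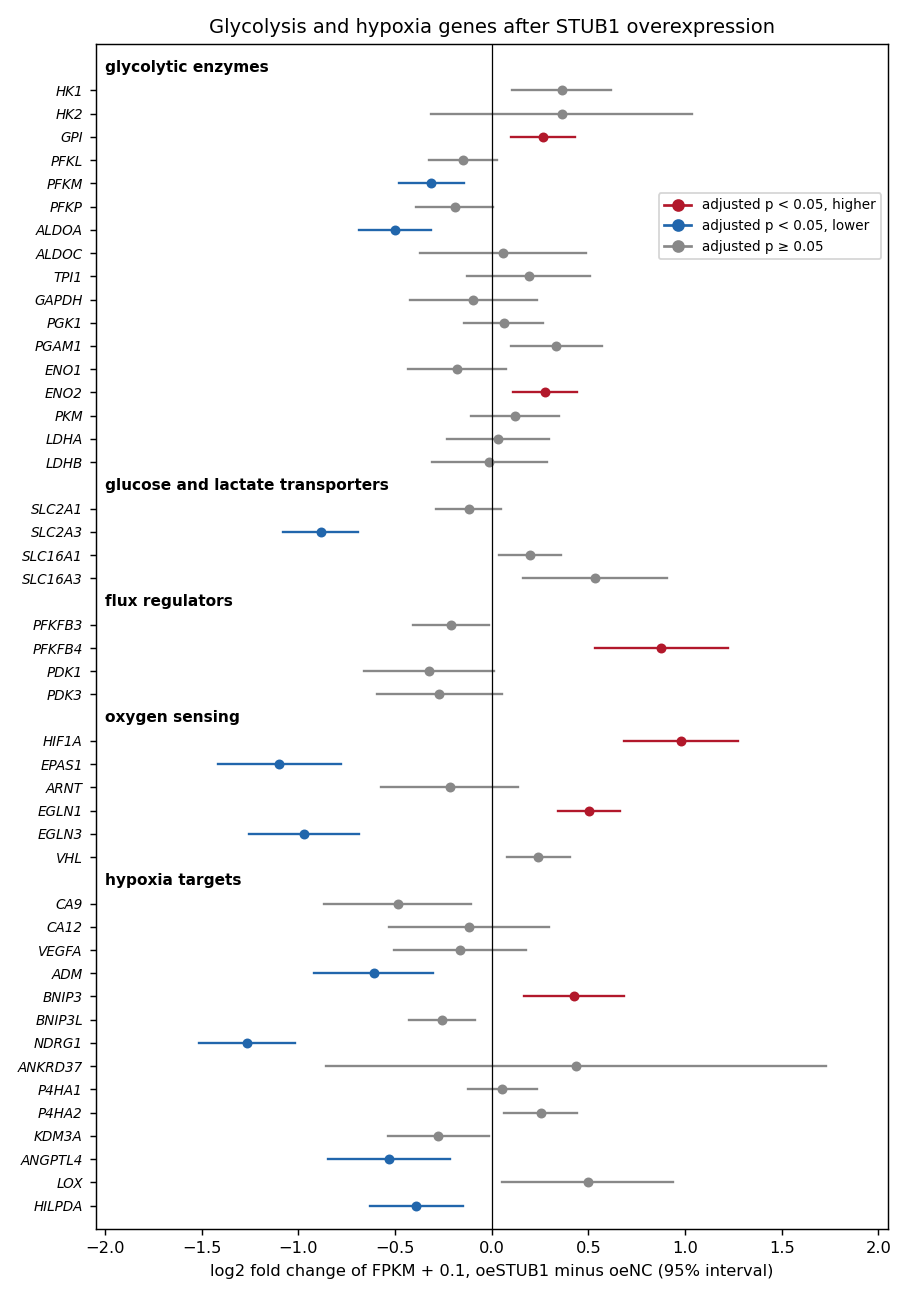
Log2 fold change of each gene (points, oeSTUB1 minus oeNC) with its 95% interval from limma (bars), grouped by role and coloured by call. Glycolytic enzymes lie between -0.50 and 0.36, while the oxygen-sensing genes reach from -1.10 to 0.98.

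Transcripts of the glycolytic enzymes moved in both directions and by small amounts. Of 17 enzymes GPI and ENO2 rose, PFKM and ALDOA fell, and 13 did not pass the test. Called enzymes were thus 23.5%, against 13.6% of all genes tested. The groups did not overlap in 9 of the 17, against 38.8% of all genes. The median log2 fold change of the enzymes was 0.06. By library the median difference from the oeNC mean was -0.07, 0.17 and 0.06 in oeSTUB1 replicates 1, 2 and 3. Summed over the 17 enzymes the level was 7961, 7739 and 7430 FPKM in oeNC and 7126, 8554 and 7249 FPKM in oeSTUB1. The oeSTUB1 libraries lay on both sides of the oeNC range.

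In the upper steps, the hexokinase HK1 phosphorylates glucose and was at 11.8, 11.9 and 12.8 FPKM in oeNC against 14.5, 14.5 and 18.4 FPKM in oeSTUB1. The groups did not overlap, but the log2 fold change of 0.36 did not pass the test (limma adjusted p = 0.0703). HK2, the hexokinase often induced in tumours, was low in every library, between 0.160 and 0.435 FPKM, or 31 to 87 fragments. GPI, which converts glucose 6-phosphate to fructose 6-phosphate, was at 96.8, 92.2 and 94.4 FPKM in oeNC and at 111, 111 and 118 FPKM in oeSTUB1. All oeSTUB1 libraries were above all oeNC libraries, a log2 fold change of 0.26 (SE 0.072, limma adjusted p = 0.0491). That call was lost in 13 of 15 alternatives, with adjusted p-values up to 0.279 and a log2 fold change of 0.16 under quantile normalization.

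Phosphofructokinase commits the sugar to glycolysis, and its muscle-type subunit PFKM was at 18.1, 17.9 and 17.7 FPKM in oeNC against 14.1, 14.1 and 15.04 FPKM in oeSTUB1. PFKM fell in all 3 oeSTUB1 libraries, with a log2 fold change of -0.31 (SE 0.073, limma adjusted p = 0.0280), and the call was lost in 6 of 15 alternatives. Log2 fold changes of the other subunits were -0.15 for PFKL and -0.19 for PFKP, neither past the test. ALDOA, an aldolase that splits fructose 1,6-bisphosphate, was at 8.48, 8.83 and 8.21 FPKM in oeNC and at 5.95, 6.12 and 5.89 FPKM in oeSTUB1. This was the largest absolute log2 fold change among the 17 enzymes, -0.50 (SE 0.080, limma adjusted p = 0.0064), and it was called in all alternatives run except the fit without oeNC replicate 2 (limma adjusted p = 0.0512). ALDOA shares its locus with the annotated gene LOC112694756, and fragments of the shared sequence may not be told apart. Its level, its log2 fold change and the share of ALDOC given below are therefore uncertain.

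The lower steps held the most abundant transcripts. GAPDH, which makes 1,3-bisphosphoglycerate, was the highest of all 45 genes, at 3383, 3292 and 3184 FPKM in oeNC and 2825, 3515 and 2927 FPKM in oeSTUB1. Its groups overlapped, and the log2 fold change was -0.10 with a 95% interval from -0.42 to 0.23. LDHA, the lactate dehydrogenase subunit that favours lactate production, was at 1047, 1026 and 922 FPKM in oeNC and at 1013, 1112 and 938 FPKM in oeSTUB1, again overlapping, with an interval from -0.23 to 0.30. PKM, a pyruvate kinase gene, was at 889, 853 and 833 FPKM in oeNC and at 890, 975 and 935 FPKM in oeSTUB1. The oeSTUB1 values of PKM were all higher, by 0.12 on the log2 scale, which did not pass the test (limma adjusted p = 0.454). PGAM1, a phosphoglycerate mutase, had a log2 fold change of 0.33 that also missed the threshold (limma adjusted p = 0.0677). ENO2, the neuron-type enolase, was at 21.1, 21.9 and 20.5 FPKM in oeNC and 25.5, 25.0 and 26.5 FPKM in oeSTUB1. ENO2 rose by 0.28 on the log2 scale (SE 0.071, limma adjusted p = 0.0401), a call lost in 10 of 15 alternatives. ENO1, the far more abundant enolase, had a log2 fold change of -0.18 with overlapping groups.

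Without oeSTUB1 replicate 2, where calls over all genes went from 2088 to 4118, further enzymes passed the test. HK1 (0.42 on the log2 scale) and PGAM1 (0.25) were then higher, and PFKL (-0.18), GAPDH (-0.19), ENO1 (-0.26) and LDHB (-0.15) were lower. The adjusted p-values of these genes over the fits that left out each library in turn ran from 0.00983 to 0.998 in limma.

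Because FPKM is per length, isozymes of a step were also set against each other as shares of their summed FPKM within each library. Of 9 shares compared, 2 separated the groups completely. The share of ENO2 in ENO1 and ENO2 was 2.27%, 2.45% and 2.36% in oeNC and 3.44%, 2.82% and 3.42% in oeSTUB1. The share of SLC2A3 in the glucose transporters SLC2A1 and SLC2A3 was 72.3%, 73.2% and 75.1% in oeNC and 64.4%, 61.3% and 60.3% in oeSTUB1, a difference of -11.5 percentage points. Each gave p = 0.1 in a two-sided exact permutation test, the smallest value that 3 libraries against 3 allow, and 0.45 after Benjamini-Hochberg adjustment over the 9 shares. The shares of HK2, PFKL, PFKM, PFKP, ALDOC, LDHB and SLC16A3 had exact p-values from 0.2 to 0.8. PFKP made up 74.3% to 78.4% of phosphofructokinase and LDHA was the larger lactate dehydrogenase transcript in every library, with LDHB at 32.6% to 36.9% of the pair.

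**Figure D3:**
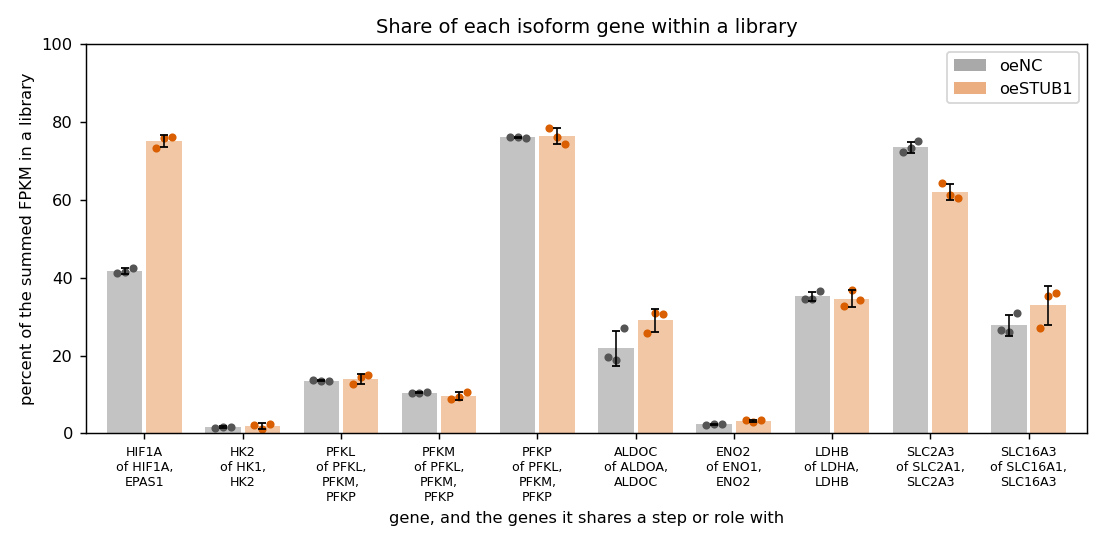
Share of one gene in the summed FPKM of its isozymes or paired transcripts (percent), with bars at group means, error bars of 1 SD and points for the 3 libraries of oeNC and of oeSTUB1. HIF1A rises from about 41.7% to 75.1% of HIF1A and EPAS1, and SLC2A3 falls from 73.5% to 62.0% of SLC2A1 and SLC2A3.

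Among the glucose and lactate transporters, SLC2A3 fell and the other 3 did not pass the test (25% called, against 13.6% of all genes). SLC2A3 encodes GLUT3, a high-affinity glucose transporter, and lies on chromosome 12 from 7919230 to 7936275 on the minus strand (GENCODE release 29, GRCh38). It was at 96.2, 98.6 and 104 FPKM in oeNC and at 57.7, 54.6 and 49.5 FPKM in oeSTUB1. The highest oeSTUB1 library was well below the lowest oeNC library, and the mean went from 99.5 ± 3.82 to 54.0 ± 4.15 FPKM (SD, n = 3 each). SLC2A3 fell by 0.88 on the log2 scale (SE 0.084, limma adjusted p = 0.0006), and the call held in all 15 alternatives. SLC2A1, which encodes GLUT1, was at 34.5 to 36.9 FPKM in oeNC and 32.0 to 34.5 FPKM in oeSTUB1, with a log2 fold change of -0.12 that did not pass the test (95% interval -0.29 to 0.05). The lactate transporters SLC16A1 (MCT1) and SLC16A3 (MCT4, a hypoxia-induced exporter) had log2 fold changes of 0.20 (limma adjusted p = 0.104) and 0.53 (limma adjusted p = 0.0685). SLC16A3 overlapped between groups, at 5.95, 5.91 and 7.45 FPKM in oeNC and 7.36, 10.3 and 10.6 FPKM in oeSTUB1.

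PFKFB3 and PFKFB4 make and degrade fructose 2,6-bisphosphate, the activator of phosphofructokinase, while PDK1 and PDK3 inactivate pyruvate dehydrogenase and so keep pyruvate out of mitochondria. PFKFB3 was the most abundant of these 4 regulators, at 117 to 130.4 FPKM in oeNC and 100.2 to 113 FPKM in oeSTUB1, with a log2 fold change of -0.21 (limma adjusted p = 0.139). PFKFB4, on chromosome 3 from 48517684 to 48562015 on the minus strand (GENCODE release 29, GRCh38), was at 0.643, 0.693 and 0.704 FPKM in oeNC and at 1.46, 1.41 and 1.14 FPKM in oeSTUB1. It rose in all 3 oeSTUB1 libraries, by 0.88 on the log2 scale (SE 0.15, limma adjusted p = 0.0079), a call held in all 15 alternatives, although its size was 0.47 with a pseudocount of 1. These levels rest on 133 to 300 fragments a library. PFKFB4 overlaps UCN2, whose mean level was 0.675 FPKM in oeNC cells and 1.41 FPKM in oeSTUB1 cells, and fragments of the overlap may not be told apart. PDK1 (-0.32) and PDK3 (-0.27) had negative log2 fold changes and non-overlapping groups, but neither passed the test. Without oeSTUB1 replicate 2 the value of PDK3 was -0.12.

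Among the 5 roles, the oxygen-sensing genes had the largest median absolute log2 fold change. Of the 6 genes 66.7% were called, against 13.6% of all genes tested. HIF1A and EGLN1 rose, EPAS1 and EGLN3 fell, and ARNT and VHL did not pass the test. Their median log2 fold change was 0.01, with rises and falls in equal number, but the median absolute value was 0.74 over the 6 genes, beside 0.21 over all genes tested. All 4 calls held in all 15 alternatives.

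HIF1A, the alpha subunit found in most tissues, lies on chromosome 14 from 61695513 to 61748259 on the plus strand (GENCODE release 29, GRCh38). It was at 89.2, 91.5 and 98.5 FPKM in oeNC and at 196, 151 and 208 FPKM in oeSTUB1. Every oeSTUB1 library was above every oeNC library, with means of 93.1 ± 4.87 and 185 ± 30.2 FPKM (SD, n = 3 each) and a log2 fold change of 0.98 (SE 0.13, limma adjusted p = 0.0025). EPAS1, the HIF-2 alpha subunit, lies on chromosome 2 from 46293667 to 46386703 on the plus strand of the same build. It was at 128, 129.6 and 133 FPKM in oeNC and at 71.0, 48.4 and 65.1 FPKM in oeSTUB1. EPAS1 fell in all 3 oeSTUB1 libraries, from a mean of 130.1 ± 2.72 to 61.5 ± 11.7 FPKM (SD, n = 3 each), a log2 fold change of -1.10 (SE 0.14, limma adjusted p = 0.0022). In oeNC cells EPAS1 was thus the more abundant alpha transcript per length, and in oeSTUB1 cells HIF1A was. As a share of the summed FPKM of both, a measure chosen after these values were seen and given without a test, HIF1A was 41.1%, 41.4% and 42.6% in oeNC and 73.4%, 75.7% and 76.2% in oeSTUB1.

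EPAS1 lies on a chromosome whose genes were lower at the median. The median log2 fold change of the 1031 genes tested on chromosome 2 was -0.21, and EPAS1 was lower than that median by a log2 difference of -0.89. The other genes of the list on chromosome 2 were HK2, PDK1 and KDM3A, whose log2 differences from that median were 0.57, -0.11 and -0.06. HIF1A overlaps the antisense transcript HIF1A-AS1, which had 3, 3 and 1 fragments in oeNC and 26, 23 and 32 fragments in oeSTUB1. Whether the counting used strand is not given in the sources used here, so HIF1A-AS1 fragments and HIF1A fragments may not be told apart. HIF1A-AS1 reached at most 1.44 FPKM in oeSTUB1. ARNT, the shared beta subunit, was at 10.98, 11.3 and 12.2 FPKM in oeNC and 11.2, 7.62 and 11.1 FPKM in oeSTUB1, with overlapping groups and a log2 fold change of -0.22 (limma adjusted p = 0.380) that was -0.036 without oeSTUB1 replicate 2.

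Of the prolyl hydroxylases, EGLN1 (PHD2), the main oxygen sensor of most cells, was at 29.6, 31.4 and 32.1 FPKM in oeNC and at 44.2, 43.9 and 43.8 FPKM in oeSTUB1. The 3 oeSTUB1 libraries were nearly equal and all higher, a log2 fold change of 0.50 (SE 0.070, limma adjusted p = 0.0034). EGLN3 (PHD3), itself a strongly hypoxia-induced gene, was at 21.4, 23.4 and 20.7 FPKM in oeNC and at 9.20, 12.2 and 12.05 FPKM in oeSTUB1. It fell in all 3 oeSTUB1 libraries, by 0.97 on the log2 scale (SE 0.12, limma adjusted p = 0.0023). EGLN1 and EGLN3 therefore moved in opposite directions, as did the alpha subunits. VHL, the receptor for hydroxylated HIF alpha, was at 18.0 to 18.8 FPKM in oeNC and 21.4 to 22.5 FPKM in oeSTUB1. Its groups did not overlap, and the log2 fold change of 0.24 missed the threshold (limma adjusted p = 0.0614).

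The 14 hypoxia targets outside glycolysis did not rise as a group. Of the 14 genes 35.7% were called, against 13.6% of all genes tested. NDRG1, ADM, ANGPTL4 and HILPDA fell, BNIP3 rose, and 9 did not pass the test. Their median log2 fold change was -0.21, and by library the median difference from the oeNC mean was -0.27, -0.17 and -0.15 in oeSTUB1 replicates 1, 2 and 3. Summed over the 14 genes the level was 469.7, 472 and 477 FPKM in oeNC and 389, 388 and 444 FPKM in oeSTUB1. All 3 sums of oeSTUB1 were below those of oeNC, unlike the sums of the glycolytic enzymes, which overlapped. A difference between these lists was not tested.

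NDRG1, a stress-responsive gene widely used as a marker of hypoxia, was at 50.2, 47.9 and 38.5 FPKM in oeNC and at 18.7, 18.9 and 18.6 FPKM in oeSTUB1. Its oeSTUB1 values were nearly equal and below every oeNC value, and the log2 fold change of -1.27 (SE 0.11, limma adjusted p = 0.0004) was the largest in size among the 45 genes. The call held in all 15 alternatives. ADM, which encodes the vasodilator peptide adrenomedullin, was at 54.9, 55.4 and 58.7 FPKM in oeNC and at 33.5, 45.9 and 32.4 FPKM in oeSTUB1. ADM fell by 0.61 on the log2 scale (SE 0.13, limma adjusted p = 0.0225), with oeSTUB1 replicate 2 the nearest to the controls. ANGPTL4, a secreted inhibitor of lipoprotein lipase whose promoter stretch with 1 core is printed above, was at 11.6, 11.2 and 10.3 FPKM in oeNC and at 6.46, 9.25 and 7.28 FPKM in oeSTUB1. It fell by 0.53 on the log2 scale (SE 0.14, limma adjusted p = 0.0388). HILPDA, a lipid droplet protein that inhibits triglyceride breakdown, was at 48.1, 48.9 and 58.5 FPKM in oeNC and at 35.9, 40.2 and 42.3 FPKM in oeSTUB1. The groups did not overlap, with a log2 fold change of -0.39 (SE 0.10, limma adjusted p = 0.0466).

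BNIP3, a mitophagy receptor whose promoter stretch is printed above, was the target that rose. It was at 40.3, 37.7 and 40.2 FPKM in oeNC and at 49.1, 62.8 and 48.2 FPKM in oeSTUB1, a log2 fold change of 0.43 (SE 0.11, limma adjusted p = 0.0423). Its paralog BNIP3L had a log2 fold change of -0.26 that missed the threshold (limma adjusted p = 0.0557), with no overlap between groups. The calls of ADM, ANGPTL4 and HILPDA were lost when any library other than oeSTUB1 replicate 2 was left out, with adjusted p-values up to 0.155 in limma. In all, ADM lost its call in 5 of 15 alternatives, HILPDA in 7, ANGPTL4 in 8 and BNIP3 in 8 (adjusted p up to 0.165 in limma). BNIP3 lost it without oeNC replicate 1, 2 or 3, without oeSTUB1 replicate 1, and with median-ratio scaling, and all but ADM also lost it with no filter and with eBayes without trend.

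**Figure D4:**
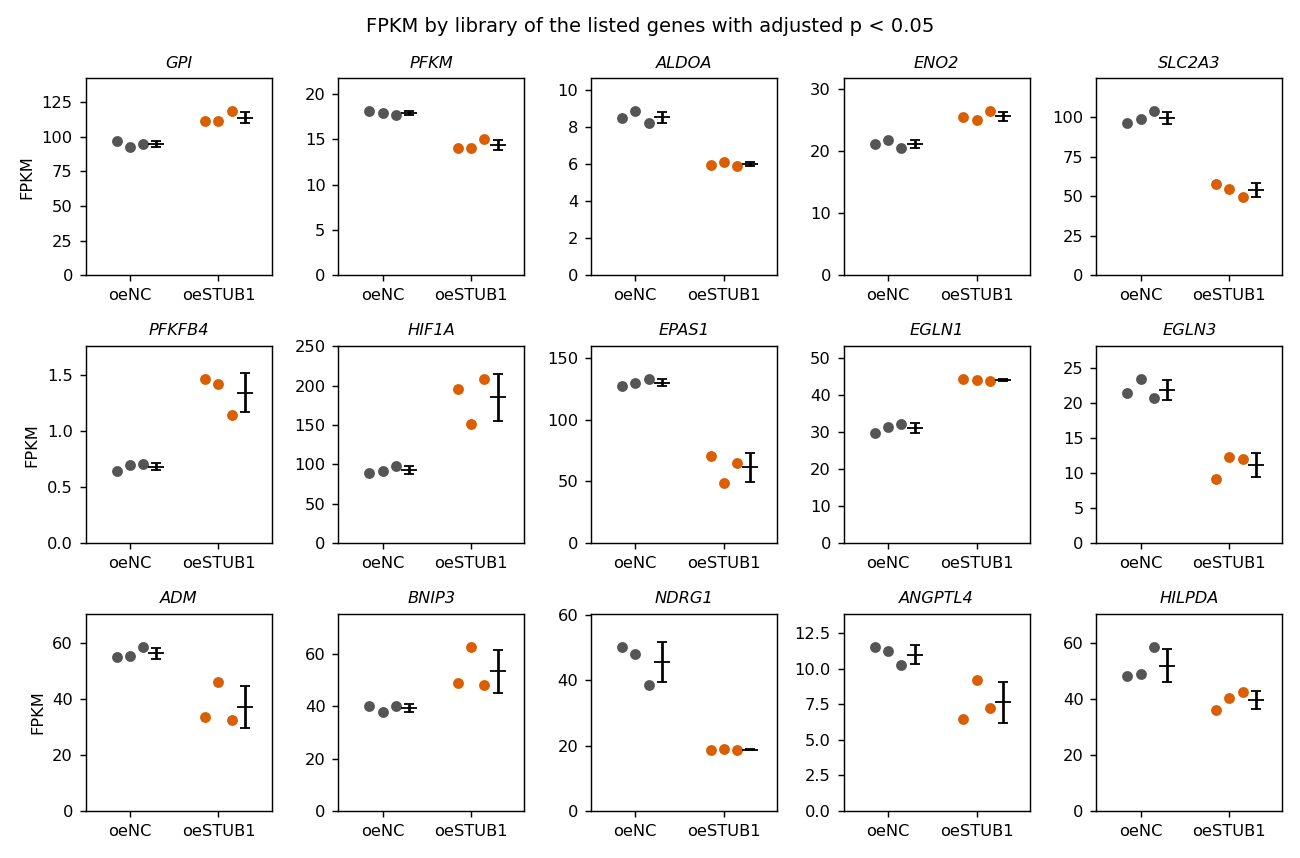
FPKM of the 15 genes that passed the test in each library (points), with group means and error bars of 1 SD, n = 3 per group, each panel with its own axis from 0. The 3 oeSTUB1 points lie all above or all below the 3 oeNC points in every panel, with oeSTUB1 replicate 2 nearest to oeNC for HIF1A and ADM.

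The carbonic anhydrases that regulate extracellular pH did not pass the test. CA12, the most abundant hypoxia target of the list, was at 160.1, 165 and 163 FPKM in oeNC and at 153, 113 and 195 FPKM in oeSTUB1, spread around the oeNC range. CA9, a classic HIF1A target, was at 9.49, 9.82 and 9.28 FPKM in oeNC and at 5.46, 8.87 and 6.38 FPKM in oeSTUB1. All oeSTUB1 values of CA9 were lower, with a log2 fold change of -0.49 that missed the threshold (limma adjusted p = 0.0920). Without oeSTUB1 replicate 2 it was -0.68 (limma adjusted p = 0.0014). CA9 lies on chromosome 9, where the median log2 fold change of 604 genes was 0.16, opposite in sign to that of CA9. VEGFA, the angiogenic growth factor, overlapped between groups at 11.96, 12.3 and 17.6 FPKM in oeNC and 12.03, 12.7 and 11.96 FPKM in oeSTUB1.

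The collagen-modifying targets had positive log2 fold changes that did not pass the test, 0.05 for P4HA1 and 0.25 for P4HA2, both prolyl 4-hydroxylase subunits, and 0.50 for LOX, a collagen crosslinking enzyme with 40 to 73 fragments a library. The histone demethylase KDM3A (-0.28) and ANKRD37 (0.44, on 10 to 58 fragments) also did not pass. Without oeSTUB1 replicate 2 the values were -0.16 for KDM3A and 0.017 for ANKRD37, and without oeSTUB1 replicate 1 ANKRD37 was at 1.14.

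Other genes of these pathways were taken from wider lists. Of 20 further glycolysis genes tested 6 rose and 2 fell (40% called), against 13.6% of all genes tested. SLC16A7 (MCT2), a high-affinity monocarboxylate transporter, was at 0.146, 0.164 and 0.105 FPKM in oeNC and at 1.146, 0.772 and 1.44 FPKM in oeSTUB1, a log2 fold change of 2.32 (limma adjusted p = 0.0010). PDK4, a pyruvate dehydrogenase kinase induced by fasting, was at 158, 161 and 217 FPKM in oeNC and at 58.5, 52.2 and 75.3 FPKM in oeSTUB1, a log2 fold change of -1.53 (limma adjusted p = 0.0012). PDK4 was far above PDK1 and PDK3 per length in both groups. HKDC1, a hexokinase named after its value was seen, rose by 0.36 on the log2 scale (limma adjusted p = 0.0145). Its mean of 17.6 FPKM in oeNC and 22.7 FPKM in oeSTUB1 was above that of HK1 and HK2. Of 12 genes of gluconeogenesis and pyruvate entry into mitochondria tested, 8.33% were called, against 13.6% of all genes. PCK2, named after its value was seen, fell by 0.92 on the log2 scale (limma adjusted p = 0.0022) and the rest did not pass.

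Of 7 further oxygen-sensing genes tested, 0 passed by limma, 0 by limma-voom on recovered fragments, and 2 had an unadjusted p under 0.05. EGLN2 was listed with 0 to 3 fragments a library and was not tested. Overlapping genes were looked up for the listed genes only, so its row cannot tell low expression from fragments left unassigned. Of 32 further hypoxia targets 6 rose and 3 fell (28.1% called), against 13.6% of all genes tested. EFNA1, an ephrin ligand, was at 12.6, 11.4 and 12.1 FPKM in oeNC and at 27.4, 35.8 and 25.4 FPKM in oeSTUB1, a log2 fold change of 1.27 (limma adjusted p = 0.00088). The median log2 fold change over these 32 targets was 0.09.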

How the data were processed

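The data were 6 RNA-seq libraries of TFK1 cells, 3 oeNC and 3 oeSTUB1, grouped by their labels. The authors deposited FPKM values for 23569 genes. The submitters' processing notes name fastp 0.20.1, HISAT2 2.1.0, HTSeq 0.11.2, R 3.2.0, DESeq2 1.22.2 and GRCh38.p13, without their settings. The genes and lists were chosen with earlier results of these data known.

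Whole fragments were recovered from the FPKM steps for all 23569 genes (recomputed FPKM within 4.9e-06), up to a common divisor per gene, and they made up 99.7% of the library totals. The main test was limma 3.58.1 in R 4.3.3 (lmFit, eBayes with trend, two-sided) on log2(FPKM + 0.1) for 15353 genes whose mean reached 0.1 FPKM, with Benjamini-Hochberg adjustment. Shares were compared by exact permutation. On simulated data with 200 genes changed 4-fold, limma called 200 of them with the right sign, and 16 unchanged genes, of 15356 tested. The median absolute log2 fold change of the changed genes, 1.95, was above that of every listed gene. Recovery of smaller changes was not tested. The simulation gave all genes the same spread between replicates beyond counting noise. It held no library that stood apart like oeSTUB1 replicate 2, so its count of unchanged genes called cannot be carried over to these libraries.

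Values in every library were given for genes that passed the test and for abundant or borderline genes of each role. Of the wider lists, genes past the test with an absolute log2 fold change over 1 were named, except for a gene that is not reported here. Chromosomes came from RefSeq (GRCh38.p14) for 96.7% of the tested genes, and coordinates from GENCODE release 29. Alternatives were other pseudocounts, filters, scalings, eBayes without trend, a replicate block, limma-voom on fragments, and leaving out each library. Numbered pseudogene rows of the listed genes numbered 0. Value columns of no mapped sample numbered 0. Python 3.11.15 was used elsewhere.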

Additional observations from a re-analysis of the deposited data

How the results depend on the processing

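Over 15 alternatives, 7 of the 15 calls were kept in every one (SLC2A3, PFKFB4, HIF1A, EPAS1, EGLN1, EGLN3 and NDRG1), none of the 15 reversed, and 13 genes without a call gained one in at least 1 alternative. Leaving out each library in turn gave 3 to 11 higher and 4 to 15 lower genes of the list, and 474 to 2273 higher and 453 to 1845 lower genes of all. The highest counts came without oeSTUB1 replicate 2. Requiring an absolute log2 fold change over 1 left 429 higher and 369 lower genes of all, and 0 higher and 2 lower of the list. With limma-voom on recovered fragments 1095 genes of all were higher and 1069 lower, and 4 and 9 of the list. Median-ratio scaling left 3 higher genes of the list. The median log2 fold change of the hypoxia targets was -0.27 with a filter at a mean FPKM of 1 and -0.27 with quantile normalization, and it ran from -0.29 to -0.18 with each library left out, while that of the glycolytic enzymes ran from -0.02 to 0.13. HK2, LOX and ANKRD37 have no value with the filter at a mean FPKM of 1. Directions reversed with quantile normalization for GAPDH (0.10), P4HA1 (-0.023) and PGK1 (-0.041). With each library left out in turn, 7 further values crossed 0, and their ranges were -0.037 to 0.24 for ALDOC, -0.31 to 0.088 for CA12, -0.033 to 0.090 for LDHA, -0.15 to 0.059 for LDHB, -0.26 to 0.014 for VEGFA, -1.82 to 0.307 percentage points for the LDHB share and -0.771 to 1.28 percentage points for the PFKP share. The cause of these shifts was not tested. Deviations of same-numbered libraries from their group means had correlations of -0.049, -0.052 and 0.062, and those of unlike number ran from -0.097 to 0.11. The deviations sum to 0 within each group, so these correlations are not independent of each other. They cannot decide whether the number carried a shared effect or whether libraries were prepared in numbered pairs. A replicate block gave 741 higher and 747 lower genes of all and 4 higher and 7 lower of the list. The block left GPI, PFKM, ENO2, BNIP3 and ANGPTL4 without a call and gave a call for SLC16A3. Depth limits the low genes HK2, LOX, ANKRD37 and PFKFB4.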
